A study of Homo sapiens with 18 samples.

Results

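The collagen chains were the genes whose symbol has the form COL, number, A, number. Of 23106 genes in the count files 44 carried such a symbol, and the 31 with 10 or more counts in at least 3 of the 18 samples were kept. PolyA+ RNA had been sequenced from 3 established human cell lines, each in normoxia and in hypoxia and each with 3 replicates per condition. HKC-8 is a kidney proximal tubule line, RCC4+VHL is a kidney cancer line stably transfected with wild-type VHL so that it, like the other lines, carries the factor by which HIF-α is degraded in oxygen, and HepG2 is a hepatocellular carcinoma line. Per the labels, hypoxic HKC-8 and HepG2 cells were kept at 0.5% oxygen for 16 h and hypoxic RCC4+VHL cells at 1% for 24 h. For HKC-8 the sample titles instead read 0.1% in hypoxia and 21% in normoxia, and the study's text gives 0.5% and 16 h for all lines. No drug or other agent separated the groups, and all lines grew in the same medium with serum. The labels do not say that replicates came from separate cultures, so the p-values measure the spread between these samples, which may be technical.

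Collagens are secreted or membrane-bound proteins in which chains wind into a triple helix, and the partners a chain can find decide which trimer is made. Fibrillar chains form the fibres of connective tissue, FACIT chains sit on those fibres, and network chains, above all type IV, build the basement membrane beneath epithelia. Type VI forms beaded filaments, type VII the anchoring fibrils under epithelia, types XIII and XVII span the cell membrane, and the multiplexins XV and XVIII belong to basement membranes. Prolyl and lysyl hydroxylases, which need oxygen, modify the chains before export, and lysyl oxidases cross-link them outside the cell.

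Library totals ran from 40915980 to 48355303 for HepG2, from 42045335 to 51794355 for RCC4+VHL and from 75441764 to 97984260 for HKC-8. The totals of HepG2 and RCC4+VHL overlapped, while the greater depth of HKC-8 cannot be told apart from that line. Values below are CPM, that is counts relative to library size, scaled by the trimmed mean of M values (TMM) over all 18 samples, with the SD of 3 replicates. The hepatocyte marker list fitted its label, with all 8 of 8 markers at 10 or more counts in every HepG2 sample and a summed level of 33514 to 42087 CPM, against at most 0.552 CPM in HKC-8 and 11.2 CPM in RCC4+VHL. Of 8 renal tubule markers 7 reached 10 counts in every RCC4+VHL sample but only 3 in every normoxic HKC-8 sample. There LRP2 was at 0, and CUBN and AQP1 had at most 5 and 8 counts. The liver line HepG2 also had 3 in every normoxic sample, so this count does not set HKC-8 apart from it. The summed level in normoxia was 156 to 200 CPM in HKC-8, 792 to 819 CPM in RCC4+VHL and 17.0 to 22.0 CPM in HepG2. All 5 epithelial markers reached 10 counts in every sample, while 4 endothelial markers summed to at most 3.46 CPM and 3 blood markers to at most 68.4 CPM. The blood sum was nearly all CD68, at 64.6 ± 3.89 CPM in hypoxic HepG2. PTPRC and HBB had at most 5 and 1 counts in any sample. A list of 6 hypoxia-induced genes, summed, went from 118.9 to 128.0 CPM to 1068 to 1397 CPM in HKC-8, from 117.9 to 121.6 CPM to 976 to 1006 CPM in RCC4+VHL and from 139 to 153 CPM to 1144 to 1260 CPM in HepG2. NDRG1 alone was at 718 ± 162, 660 ± 4.30 and 520 ± 44.1 CPM in hypoxic HKC-8, RCC4+VHL and HepG2. In RCC4+VHL only 4 of the 6 reached 10 counts in every sample, with CA9 at 6 counts or fewer and EGLN3 at 7 or fewer.

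The type IV genes lie in head-to-head pairs, and the sequence between the partners of the pairs that responded to hypoxia is shown. Beside it are the 250 bases upstream of COL7A1, which rose in every line, and of COL13A1 and COL5A1. The latter are among the 4 chains that rose at least 2-fold in HKC-8. The others, COL14A1 and COL15A1, are not printed. All are from the GRCh37 genome. Capitals mark the letters ACGTG or GCGTG on either strand (CACGT or CACGC as printed when on the other strand), the core letters of a hypoxia response element. The COL4A1 to COL4A2 gap, taken between the canonical transcript starts, is chr13:110959505-110959630 on the plus strand, with COL4A1 leftwards and COL4A2 rightwards. The annotated spans of these genes overlap there. The COL4A4 to COL4A3 gap, taken between the annotated gene spans, is chr2:228029170-228029339 on the plus strand, with COL4A4 leftwards and COL4A3 rightwards. The canonical COL4A4 start, at 228028921, lies outside it, so the gaps are defined differently. The others are chr3:48632763-48633012 on the minus strand for COL7A1, chr10:71561412-71561661 on the plus strand for COL13A1 and chr9:137533399-137533648 on the plus strand for COL5A1.
COL4A1 to COL4A2: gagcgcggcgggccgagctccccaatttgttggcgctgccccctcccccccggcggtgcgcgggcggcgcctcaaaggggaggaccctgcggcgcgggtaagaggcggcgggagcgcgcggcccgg
COL4A4 to COL4A3: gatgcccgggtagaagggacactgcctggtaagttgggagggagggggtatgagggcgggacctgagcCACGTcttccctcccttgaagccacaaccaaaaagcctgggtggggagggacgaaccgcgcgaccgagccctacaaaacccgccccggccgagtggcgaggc
COL7A1: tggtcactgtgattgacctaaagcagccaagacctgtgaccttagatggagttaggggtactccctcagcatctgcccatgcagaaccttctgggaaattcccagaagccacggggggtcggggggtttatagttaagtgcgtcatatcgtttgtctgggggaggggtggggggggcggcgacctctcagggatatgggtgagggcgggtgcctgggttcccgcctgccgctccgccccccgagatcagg
COL13A1: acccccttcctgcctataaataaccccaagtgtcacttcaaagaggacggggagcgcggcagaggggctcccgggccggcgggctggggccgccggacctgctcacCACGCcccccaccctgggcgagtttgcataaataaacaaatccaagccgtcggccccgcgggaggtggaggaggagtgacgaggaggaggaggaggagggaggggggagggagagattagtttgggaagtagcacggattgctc
COL5A1: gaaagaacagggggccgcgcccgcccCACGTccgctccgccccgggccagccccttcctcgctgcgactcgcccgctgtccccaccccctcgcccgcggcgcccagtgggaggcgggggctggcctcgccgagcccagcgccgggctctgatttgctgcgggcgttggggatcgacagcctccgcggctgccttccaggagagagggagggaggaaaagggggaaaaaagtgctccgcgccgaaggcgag
The COL4A4 to COL4A3 gap, COL13A1 and COL5A1 each held the motif 1 time, and the COL4A1 to COL4A2 gap and COL7A1 held it 0 times. In the 250 bases upstream of each canonical start, COL4A2 and COL4A3 held it 1 time, and COL4A1 and COL4A4 0 times. There COL14A1 held it 1 time and COL15A1 3 times. In the same 250-base window 12 of the 31 collagen genes (38.7%) had at least 1 match, against 10188 of 19812 canonical protein-coding starts (51.4%). A match is a run of letters and not a shown binding site, and no match says nothing of sites outside the window.

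The repertoire of chains differed between the lines in normoxia. Summed over all 44 collagen genes, the level was 1449 ± 146 CPM in HKC-8, 2114 ± 119 CPM in RCC4+VHL and 655 ± 55.3 CPM in HepG2 (SD, n = 3). Counted per kilobase of transcript over the 31 kept genes, network chains took 48.0% ± 1.48 of the sum in HKC-8 and 81.7% ± 0.165 in RCC4+VHL but 9.11% ± 0.794 in HepG2. FACIT chains took 45.5% ± 0.188 in HepG2, 22.6% ± 2.06 in HKC-8 and 2.56% ± 0.255 in RCC4+VHL. The share of COL4A1 and COL4A2 together was 44.6% ± 1.13, 79.6% ± 0.296 and 0.261% ± 0.0128 in HKC-8, RCC4+VHL and HepG2. The basement membrane pair thus took most of the sum in RCC4+VHL, less than the other chains together in HKC-8, and hardly any of it in HepG2.

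**Figure D1:**
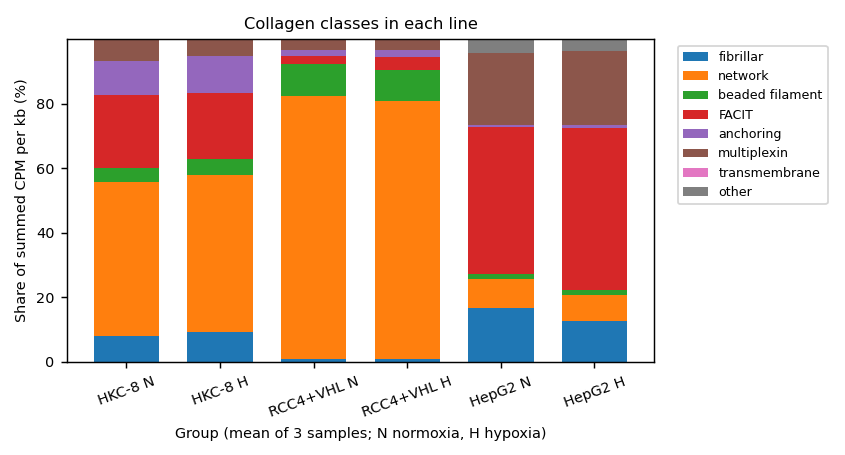
Share of each collagen class in the summed level per kilobase (%, y axis) in each of the 6 groups (x axis, mean of 3 samples), stacked by class. Network chains fill most of every RCC4+VHL bar (81.7% on average in normoxia), about as much as all other classes together in HKC-8 (48.0%), and little of HepG2 (9.11%), where FACIT chains lead (45.5%).

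In HKC-8 the highest chains per kilobase in normoxia were COL4A2 at 42.4 ± 6.34 CPM per kb, COL4A1 at 41.1 ± 3.62 and the FACIT chain COL12A1 at 39.6 ± 5.07, whose ranges overlapped, then COL7A1 at 19.5 ± 2.29 and COL18A1 at 12.4 ± 3.89. In RCC4+VHL the order was COL4A1 at 163 ± 9.12 CPM per kb, COL4A2 at 99.4 ± 6.80, COL6A2 at 18.7 ± 1.27, COL6A1 at 13.3 ± 0.860 and COL18A1 at 10.4 ± 0.966. No neighbours in the RCC4+VHL order overlapped. HepG2 had another set on top, with COL9A3 at 52.9 ± 4.92 CPM per kb, COL18A1 at 32.6 ± 2.52, COL27A1 at 18.5 ± 2.96, COL9A2 at 10.7 ± 0.692 and COL4A5 at 9.05 ± 0.535, again with no overlap between neighbours. COL18A1, the source of endostatin, was the only chain among the highest 5 of every line.

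**Figure D2:**
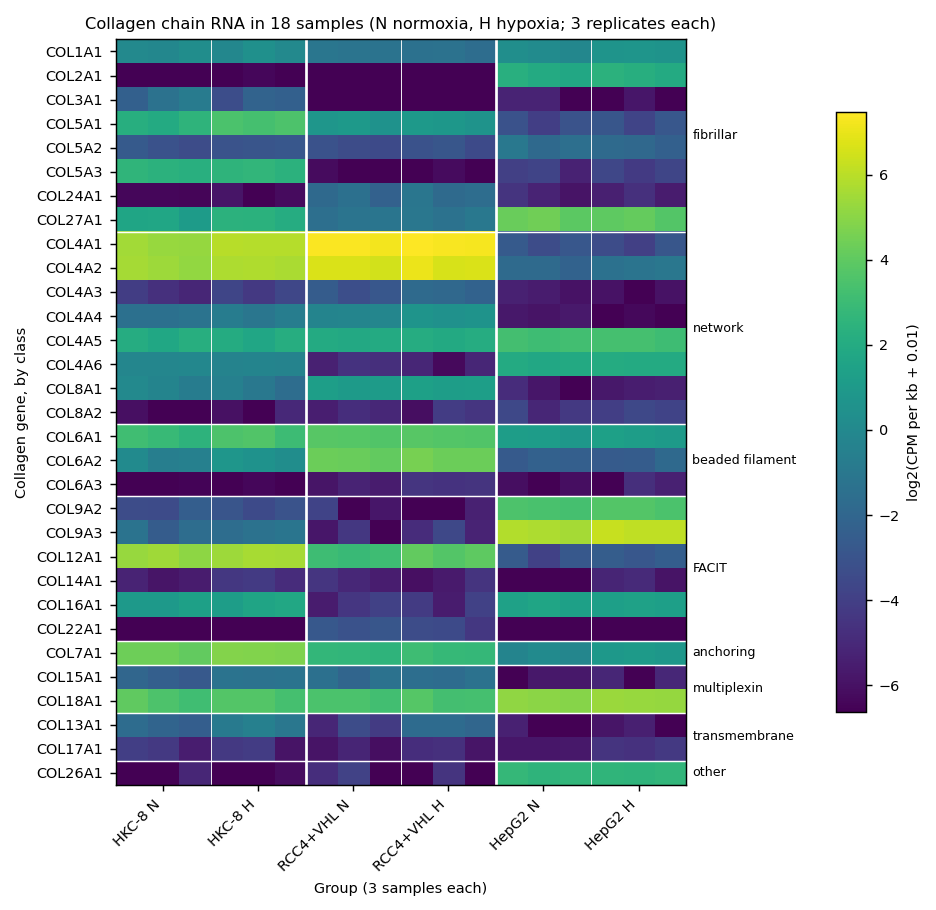
Heat map of the 31 collagen genes (rows, grouped by class) in the 18 samples (columns, grouped by cell line and oxygen), coloured by log2 of CPM per kb plus 0.01. The lines differ in which rows are bright, with COL4A1 and COL4A2 bright in both kidney lines and COL9A3, COL9A2, COL2A1 and COL26A1 bright in HepG2, and the 3 replicates of a group look alike.

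In a joint fit of the 9 normoxic samples 27 collagen genes were tested between lines, with p-values adjusted over all genes by the Benjamini-Hochberg method. RCC4+VHL was higher than HKC-8 for 10 and lower for 12, where 39.4% and 41.4% of all genes tested were called higher and lower. HepG2 was higher than HKC-8 for 10 and lower for 14, beside 42.6% and 40.5% of all genes. Against RCC4+VHL it was higher for 12 and lower for 14, beside 45.3% and 38.1% of all genes. None of these counts stands far from the share of all genes.

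COL4A1 was far lower in HepG2, with a log2 fold change of -8.36 ± 0.14 against HKC-8 (± SE, adjusted p = 4.32e-15) and of -10.37 ± 0.15 against RCC4+VHL (adjusted p = 1.29e-15). COL9A3 was 7.49 ± 0.22 log2 units higher in HepG2 than in HKC-8 (adjusted p = 8.44e-13). COL2A1, the chain of cartilage fibrils, had 756 to 1086 counts in normoxic HepG2 and 0 in every normoxic HKC-8 and RCC4+VHL sample. At a floor of 3 counts per library it was at least 591-fold higher than in HKC-8 and at least 331-fold higher than in RCC4+VHL. COL22A1, a FACIT chain, was the reverse case, with 35 to 45 counts in normoxic RCC4+VHL and 0 in all 12 samples of the other lines, which puts it at least 22.7-fold above HKC-8 and at least 11.6-fold above HepG2. COL26A1, which belongs to none of the main classes, was at 18.6 ± 1.37 CPM in HepG2 and at 0.0183 ± 0.0318 in HKC-8 and 0.0859 ± 0.0896 in RCC4+VHL. COL24A1, a fibrillar chain, stood at 1.91 ± 0.564 CPM in RCC4+VHL against 0.0118 ± 0.000688 in HKC-8 and 0.129 ± 0.0906 in HepG2.

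For several trimers only some of the usual partners were seen. COL1A2 had at most 2 counts in any sample, and 0 in 15 of 18, while COL1A1, with which it forms type I collagen, was at 6.16 ± 0.872 CPM in normoxic HKC-8, 2.52 ± 0.152 in RCC4+VHL and 6.42 ± 0.941 in HepG2. COL9A1 had at most 4 counts while COL9A3 and COL9A2 were at 132 ± 12.3 and 30.6 ± 1.97 CPM in normoxic HepG2. COL6A3, the large chain of type VI, had at most 18 counts in any sample although COL6A1 and COL6A2 were at 56.1 ± 3.61 and 64.3 ± 4.38 CPM in normoxic RCC4+VHL. COL11A1 and COL11A2, partners of COL2A1 in cartilage, reached at most 11 and 12 counts. These low chains were counted at depths where 3 counts equal at most 0.0733 CPM before TMM scaling. The remaining genes dropped for low counts were COL10A1, COL19A1, COL20A1, COL21A1, COL23A1, COL25A1, COL28A1, COL6A5 and COL6A6, with at most 13 counts in any sample.

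Ratios of partner chains per kilobase showed the same unevenness. COL6A1 was 9.27 ± 1.82 times COL6A2 in normoxic HKC-8 and 11.9 ± 3.02 times in HepG2, but 0.715 ± 0.00361 times in RCC4+VHL. COL4A1 was 0.976 ± 0.0859 times COL4A2 in normoxic HKC-8, 1.65 ± 0.0256 times in RCC4+VHL and 0.488 ± 0.159 times in HepG2. COL5A1 was 44.6 ± 17.9 times COL5A2 in HKC-8, 18.998 ± 2.89 times in RCC4+VHL and 0.243 ± 0.0692 times in HepG2. On the X chromosome, COL4A5 was 4.63 ± 0.639 times COL4A6 in HKC-8 and 2.41 ± 0.0326 times in HepG2. Per-kilobase values rest on the length of the canonical transcript of each gene.

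Hypoxia raised some chains in every line and, by the test used, lowered none. In HKC-8, 9 of 25 collagen genes tested rose at an adjusted p under 0.05 (11.2% of all genes tested rose) and 0 fell (9.12% of all genes fell). In RCC4+VHL, 7 of 21 rose (25.9% of all genes) and 0 fell (24.2%), and in HepG2, 5 of 20 rose (19.9%) and 0 fell (19.2%). The shares that rose in RCC4+VHL (33.3%) and HepG2 (25%) did not stand far from those of all genes. Without hypoxic replicate 1, 4 chains rose in HKC-8. The median log2 fold change of the collagen genes tested was 0.37 in HKC-8, 0.17 in RCC4+VHL and 0.18 in HepG2, beside 0.00, -0.00 and -0.00 for all genes. The test was edgeR's quasi-likelihood test fitted to all genes of each line, without pairing of replicates. Without adjustment 2 chains had p under 0.05 and a lower value in HKC-8 (COL3A1 and COL8A1), 1 in RCC4+VHL (COL22A1) and 2 in HepG2 (COL27A1 and COL5A2), and DESeq2 called 1 of these (COL3A1) lower in HKC-8, 0 in RCC4+VHL and 0 in HepG2.

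At a change of at least 2-fold, 4 chains rose in HKC-8 (3.96% of all genes), 2 in RCC4+VHL (2.07%) and 1 in HepG2 (4.13%). Every hypoxic value lay above every normoxic one for 10, 6 and 6 chains (19.7%, 28.2% and 24.6% of all genes) and below for 1, 2 and 0 (19.5%, 28.3% and 25%). In HKC-8 the samples numbered 2 and those numbered 3 deviated together (correlations of 0.453 and 0.447). Normoxic replicate 1 correlated alike with hypoxic replicate 1 (0.109) and hypoxic replicate 2 (0.116). With the number as a block, 13 of the 25 chains rose and 2 fell in HKC-8 (21% and 21.6% of all genes). COL14A1 in HKC-8, COL13A1 and COL6A3 in RCC4+VHL and COL5A3 in HepG2 passed the low-count filter only through their hypoxic samples. They include 1 of the 4 chains with a 2-fold rise in HKC-8 and both of those in RCC4+VHL. COL14A1 is thus among the 9 calls in HKC-8, and COL13A1 and COL6A3 are among the 7 in RCC4+VHL. In bulk RNA, more cells of a kind and more RNA per cell cannot be told apart.

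The summed level of all 44 chains went from 1285 to 1565 CPM in normoxia to 1865 to 1950 CPM in hypoxia in HKC-8, with no overlap. It went from 1977 to 2193 CPM to 2172 to 2604 CPM in RCC4+VHL and from 593 to 697 CPM to 696 to 780 CPM in HepG2, where the groups overlapped by a little. Per kilobase and over the 31 kept genes, FACIT chains went from 45.5% ± 0.188 to 50.3% ± 1.38 of the sum in HepG2 and from 2.56% ± 0.255 to 4.27% ± 0.375 in RCC4+VHL, with no overlap, and from 22.6% ± 2.06 to 20.5% ± 1.77 in HKC-8, with overlap. A list of 9 mesenchymal markers was summed too, a sum led by FN1 in HKC-8 and HepG2 and by VIM in RCC4+VHL. It went from 5969 to 8579 CPM to 8073 to 10746 CPM in HKC-8, with overlap. In RCC4+VHL the sum went from 2733 to 2809 CPM to 3745 to 3869 CPM, and in HepG2 from 10787 to 13243 CPM to 16317 to 18089 CPM, without overlap. Of the 9, 6 reached 10 counts in every sample of both kidney lines and 5 in every HepG2 sample. The receptor PDGFRB was at 7.21 ± 2.70 and then 17.1 ± 0.348 CPM in HKC-8, 43.6 ± 2.82 and 62.7 ± 1.54 CPM in RCC4+VHL and 21.7 ± 0.623 and 58.0 ± 3.92 CPM in HepG2. THY1 went the other way in RCC4+VHL, from 8.42 ± 0.317 to 3.09 ± 0.438 CPM. ACTA2 was at 22.9 ± 0.629 and 22.3 ± 1.75 CPM there and at 47.2 ± 2.55 and 43.4 ± 2.97 CPM in HepG2. Nearly all of the HepG2 sum was FN1, at 11747 ± 1218 and then 17061 ± 906 CPM. VIM was at 2.48 ± 0.368 and 2.50 ± 0.623 CPM in HepG2, and CDH2 at 158 ± 11.5 and 155 ± 3.56 CPM. DCN was at 0 in normoxic RCC4+VHL and in both HepG2 groups, and PDGFRA was at 0 in hypoxic RCC4+VHL. The part of these markers in the collagen changes was not tested.

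**Figure D3:**
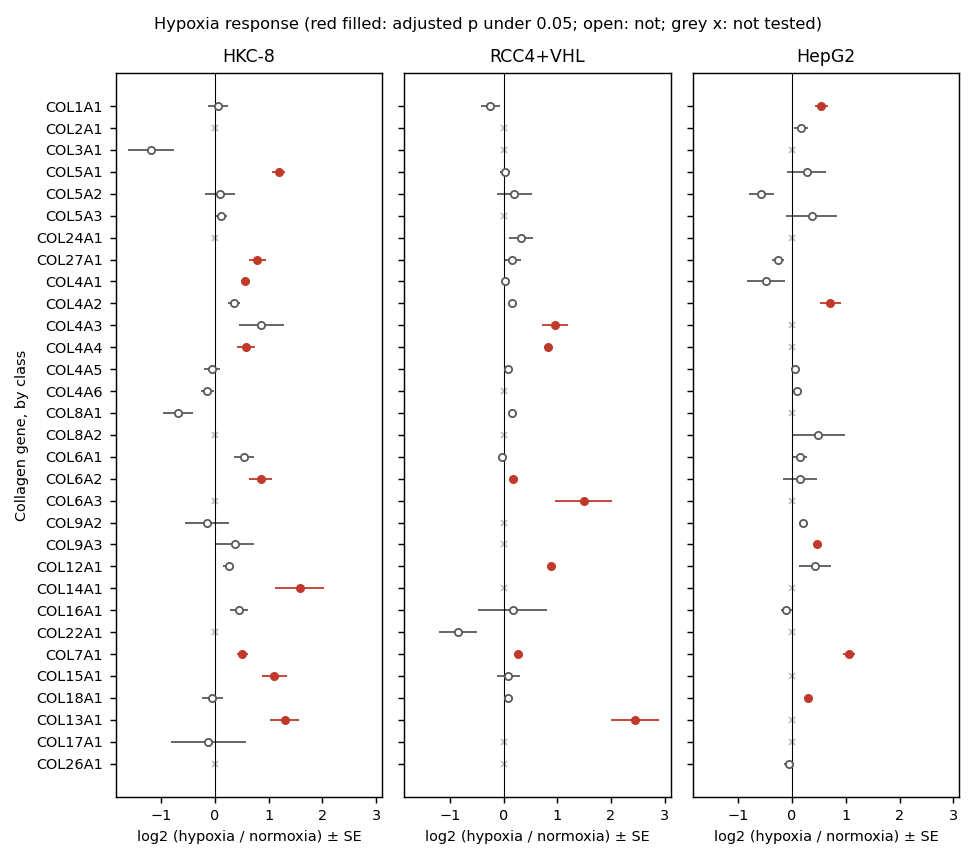
Log2 fold change, hypoxia against normoxia, of each collagen gene tested (x axis, with SE as bars) in HKC-8, RCC4+VHL and HepG2 (panels). Filled red points passed the adjusted threshold and all lie right of 0, 9 in HKC-8, 7 in RCC4+VHL and 5 in HepG2, and COL7A1 is the gene filled in every panel.

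COL7A1 (chromosome 3, 48601506 to 48632762, minus strand, 119 exons), the only chain of anchoring fibrils, was the sole collagen gene called in all lines, 1 of the 13 tested in each (3.81% of all genes tested in every line rose in each). In HKC-8 it was at 192, 193 and 156 CPM in normoxia and 265, 256 and 247 in hypoxia. In RCC4+VHL it was at 60.5, 57.5 and 54.2 and then 77.9, 65.8 and 62.2 CPM, and in HepG2 at 7.41, 9.76 and 8.21 and then 17.0, 18.9998 and 16.6 CPM. The groups did not overlap in any line, and the line with the least COL7A1 had the largest change. The log2 fold change was 0.51 ± 0.10 in HKC-8 (adjusted p = 0.00776), 0.26 ± 0.06 in RCC4+VHL (adjusted p = 0.00105) and 1.05 ± 0.11 in HepG2 (adjusted p = 1.01e-05). In a fit of all 18 samples the adjusted p of RCC4+VHL was 0.0656. A microRNA gene, MIR711, overlaps its exons in the annotation, and the counting mode used leaves out reads shared by both genes.

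Among the network chains, COL4A1 (chromosome 13, 110801310 to 110959504, minus strand), which with COL4A2 makes the common basement membrane trimer, was at 296, 258 and 252 CPM in normoxic HKC-8 and 408, 386 and 393 in hypoxia. It rose there by 0.56 ± 0.08 log2 units (adjusted p = 0.00305). In RCC4+VHL, where it was the highest collagen, it read 1108, 1099 and 1000 CPM in normoxia and 1167, 1063 and 1039 in hypoxia, and the groups overlapped (log2 fold change 0.03 ± 0.04, adjusted p = 0.521). HepG2 held 0.975, 0.582 and 0.859 CPM and then 0.571, 0.347 and 0.828, also with overlap (adjusted p = 0.298).

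COL4A2 (chromosome 13, 110958159 to 111165556, plus strand) overlaps the span of COL4A1, and the 126-base gap printed above lies between their canonical starts. COL4A2 was at 313, 276 and 231 CPM in normoxic HKC-8 and 351, 364 and 327 in hypoxia. The hypoxic samples lay above the normoxic ones, at 0.35 ± 0.11 log2 units (adjusted p = 0.0545), and the replicate block brought this under the threshold (adjusted p = 0.00225). RCC4+VHL had 663, 669 and 590 CPM and then 856, 635 and 654, with overlap (0.16 ± 0.07 log2 units, adjusted p = 0.0545). HepG2 had little of it, at 1.81, 1.84 and 1.36 CPM in normoxia, and more in hypoxia, at 2.40, 2.71 and 3.10. There it rose by 0.71 ± 0.19 log2 units (adjusted p = 0.0104).

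COL4A3 and COL4A4, chains of the mature glomerular and tubular basement membrane, share the gap on chromosome 2. COL4A4 (227867430 to 228029169, minus strand) was at 8.32, 8.48 and 8.87 CPM in normoxic RCC4+VHL and 16.0, 13.9 and 15.4 in hypoxia, a clear separation and a rise of 0.83 ± 0.08 log2 units (adjusted p = 1.79e-08). In HKC-8 it went from 3.66, 3.60 and 3.99 to 6.04, 4.54 and 6.18 CPM, a rise of 0.58 ± 0.16 (adjusted p = 0.036) that was lost without normoxic replicate 1 or 2 or hypoxic replicate 1 or 3 (adjusted p up to 0.135). COL4A3 (228029340 to 228179508, plus strand) was lower. It read 1.28, 0.775 and 1.08 CPM in normoxic RCC4+VHL and 2.31, 2.10 and 1.64 in hypoxia, a rise of 0.95 ± 0.24 (adjusted p = 0.00216), and its ratio to COL4A4 per kilobase was 0.152 ± 0.0392 and 0.166 ± 0.0298. In HKC-8 COL4A3 went from 0.396, 0.234 and 0.154 to 0.539, 0.327 and 0.557 CPM with overlap (adjusted p = 0.177). HepG2 had at most 5 counts of either chain.

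The X-linked pair COL4A5 and COL4A6 showed no call. COL4A5, at 22.4 to 29.9 CPM in normoxic HKC-8, 24.1 to 25.9 in RCC4+VHL and 55.7 to 62.7 in HepG2, had log2 fold changes of -0.05 ± 0.15, 0.08 ± 0.06 and 0.06 ± 0.07. COL4A6 was at 5.84 to 6.10 CPM in normoxic HKC-8 and 5.20 to 5.53 in hypoxia (-0.14 ± 0.12, adjusted p = 0.441). In HepG2 it was at 23.9 to 26.2 and 26.3 to 27.6 CPM (0.09 ± 0.07, adjusted p = 0.328), and in RCC4+VHL at most 0.219 CPM. Of this pair only COL4A6 separated the conditions, downwards in HKC-8 and upwards in HepG2, in neither with a call. COL8A1, a short network chain, was at 5.56, 4.45 and 3.37 CPM in normoxic HKC-8 and 3.84, 2.68 and 1.79 in hypoxia (-0.68 ± 0.28, adjusted p = 0.117, and 0.00213 with the replicate block). RCC4+VHL had 11.4 to 13.04 and 13.01 to 14.3 CPM (0.16 ± 0.08). Its partner COL8A2 was tested only in HepG2, at 0.0895 to 0.340 and 0.238 to 0.347 CPM (0.49 ± 0.49).

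**Figure D4:**
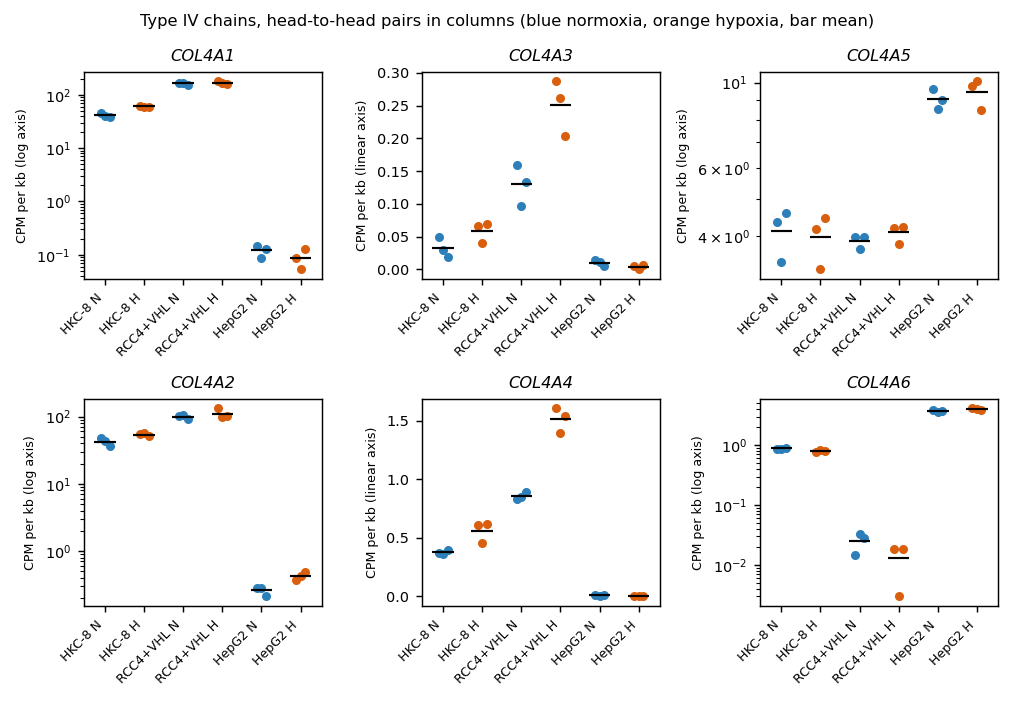
Level of COL4A1 to COL4A6 (panels) in CPM per kb (y axis, linear for COL4A3 and COL4A4 and logarithmic for the others) in each sample, by cell line and oxygen. COL4A3 and COL4A4 shift up in hypoxic RCC4+VHL and COL4A1 in hypoxic HKC-8, while COL4A5 points lie at like heights in both conditions of every line.

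Of the fibrillar chains, COL5A1 (chromosome 9, 137533649 to 137736689, plus strand), which regulates fibril width, changed most clearly. In HKC-8 it was at 39.1, 34.0 and 48.5 CPM in normoxia and 92.8, 85.4 and 97.5 in hypoxia. The groups were far apart, with a rise of 1.18 ± 0.13 log2 units (adjusted p = 0.000483). RCC4+VHL had 14.6, 16.2 and 12.5 CPM and then 16.4, 14.9 and 12.9 (0.03 ± 0.09), and in HepG2 0.929, 0.425 and 0.931 and then 1.10, 0.543 and 1.14 CPM (0.27 ± 0.36), with overlap in both.

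Its partners did not move with it in HKC-8. COL5A2 stood at 1.02, 0.727 and 0.605 CPM in normoxia and 0.765, 0.828 and 0.896 in hypoxia (0.09 ± 0.28, adjusted p = 0.848). COL5A3 stood at 37.3, 33.8 and 30.0 and then 36.5, 39.1 and 33.2 CPM (0.11 ± 0.11, adjusted p = 0.488). The ratio of COL5A1 to COL5A3 per kilobase went from 0.900 ± 0.251 to 1.88 ± 0.276 and that to COL5A2 from 44.6 ± 17.9 to 89.8 ± 7.55. COL5A2 was at 3.31, 1.88 and 2.36 CPM in normoxic HepG2 and 1.95, 1.80 and 1.29 in hypoxia (-0.57 ± 0.23, adjusted p = 0.0689), and in RCC4+VHL its change was 0.20 ± 0.33. COL5A3 in HepG2 was at 0.0955 to 0.403 and 0.261 to 0.429 CPM (0.37 ± 0.47).

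COL27A1, a fibrillar chain of cartilage, was at 24.5, 25.2 and 17.0 CPM in normoxic HKC-8 and 41.6, 40.0 and 33.1 in hypoxia. It rose by 0.78 ± 0.16 log2 units (adjusted p = 0.00986), and without hypoxic replicate 1 the adjusted p was 0.0506. HepG2 had more of it, at 150, 165 and 120 CPM in normoxia, and 122, 138 and 103 in hypoxia (-0.26 ± 0.12, adjusted p = 0.0921), and RCC4+VHL less, at 2.71 to 3.49 and 3.00 to 3.79 CPM (0.17 ± 0.15). The HepG2 groups overlapped and pointed the other way from HKC-8.

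COL1A1, the main chain of type I collagen, was at 7.32, 6.49 and 5.44 CPM in normoxic HepG2 and 9.41, 9.68 and 9.05 in hypoxia. It rose there by 0.55 ± 0.12 log2 units (adjusted p = 0.00301) with no overlap. In RCC4+VHL the groups were separated downwards, from 2.67, 2.52 and 2.36 to 2.21, 2.28 and 1.86 CPM, without a call (-0.25 ± 0.17, adjusted p = 0.254). In HKC-8 it was at 5.41 to 7.12 and 5.35 to 7.85 CPM (0.06 ± 0.18).

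COL3A1, of type III fibrils, was at 1.04, 2.17 and 3.12 CPM in normoxic HKC-8 and 0.501, 1.21 and 1.04 in hypoxia, and had 0 counts in every RCC4+VHL sample. Its log2 fold change in HKC-8 was -1.19 ± 0.43 (adjusted p = 0.0778), and it passed as lower with the replicate block (adjusted p = 0.00181) and with DESeq2 (adjusted p = 0.0203). COL2A1 in HepG2 was at 18.05 to 24.6 and 19.7 to 27.2 CPM (0.17 ± 0.13) and COL24A1 in RCC4+VHL at 1.38 to 2.50 and 1.94 to 3.07 CPM (0.33 ± 0.22), neither with a call.

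Calls among the FACIT chains differed by line. Of these chains only COL12A1, between RCC4+VHL and HKC-8, passed the test of a difference in response given below. COL12A1, found in dense connective tissue, was at 102, 88.8 and 98.4 CPM in normoxic RCC4+VHL and 199, 151 and 182 in hypoxia. This was the smallest adjusted p among the hypoxia tests of collagen genes within a line, with a rise of 0.89 ± 0.07 log2 units (adjusted p = 9.63e-11). In HKC-8, with far more of it, the values were 466, 523 and 404 and then 506, 583 and 566 CPM, with overlap (0.25 ± 0.11, adjusted p = 0.128, and 0.0172 with the replicate block). HepG2 had 0.671 to 1.86 and 1.54 to 2.04 CPM (0.43 ± 0.30).

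COL9A3, a chain of type IX collagen, was at 143, 134 and 119 CPM in normoxic HepG2 and 198, 172 and 174 in hypoxia, a rise of 0.46 ± 0.08 log2 units (adjusted p = 0.000476). Its partner COL9A2 was at 32.6, 30.7 and 28.6 and then 36.5, 36.8 and 32.2 CPM, with a slight overlap (0.20 ± 0.08, adjusted p = 0.0613). The ratio of COL9A3 to COL9A2 per kilobase was 4.91 ± 0.156 in normoxia and 5.90 ± 0.482 in hypoxia. In HKC-8 both were at 1.11 CPM or less, without a call. The response of COL9A3 in HepG2 did not pass the interaction test against HKC-8 (difference 0.09 ± 0.27, adjusted p = 0.905). An exon of COL9A3 overlaps TCFL5 in the annotation.

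COL14A1, which binds fibril surfaces, rested on few reads. It had 11, 5 and 8 counts in normoxic HKC-8 and 25, 33 and 16 in hypoxia, a rise of 1.58 ± 0.45 log2 units (adjusted p = 0.0387) that DESeq2 did not call (adjusted p = 0.0623) and that was lost without any 1 sample other than hypoxic replicate 3 (adjusted p up to 0.132). It passed the low-count filter only through its hypoxic samples, and with no such filter the call was lost (adjusted p = 0.0525). COL16A1 was at 10.8, 10.7 and 14.0 CPM in normoxic HKC-8 and 12.6, 16.6 and 19.003 in hypoxia (0.45 ± 0.17, adjusted p = 0.0992, and 0.00525 with the replicate block). In HepG2 it was at 13.9 to 17.1 and 13.7 to 14.8 CPM (-0.11 ± 0.10) and in RCC4+VHL at most 0.310 CPM. COL22A1 in RCC4+VHL had 45, 35 and 35 counts in normoxia and 27, 26 and 12 in hypoxia, all lower, just outside the threshold (-0.85 ± 0.36, adjusted p = 0.0528).

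Of the type VI chains, which form beaded filaments around cells, COL6A2 rose in both kidney lines. In HKC-8 it went from 3.65, 2.25 and 2.43 to 5.78, 5.04 and 4.20 CPM, 0.85 ± 0.22 log2 units (adjusted p = 0.0244), a call lost without normoxic replicate 2 or hypoxic replicate 1 (adjusted p up to 0.102). In RCC4+VHL the call was small and the groups overlapped, from 67.5, 66.2 and 59.3 to 82.1, 68.0 and 66.9 CPM (0.17 ± 0.06, adjusted p = 0.0226). It was lost with DESeq2 (adjusted p = 0.195), in a fit of all 18 samples (adjusted p = 0.432) and without normoxic replicate 3 or hypoxic replicate 1 (adjusted p up to 0.256). HepG2 had 0.521 to 0.694 and 0.548 to 0.957 CPM (0.14 ± 0.32).

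COL6A1 was at 37.3, 31.3 and 23.9 CPM in normoxic HKC-8 and 48.3, 52.0 and 33.9 in hypoxia, with overlap (0.54 ± 0.19, adjusted p = 0.071), and was called with the replicate block (adjusted p = 0.000357). In RCC4+VHL it was at 52.0 to 58.5 and 52.1 to 59.1 CPM (-0.02 ± 0.05) and in HepG2 at 7.33 to 9.70 and 8.66 to 11.1 CPM (0.15 ± 0.13). COL6A3 had 4, 9 and 5 counts in normoxic RCC4+VHL and 18, 17 and 17 in hypoxia (1.49 ± 0.53, adjusted p = 0.0222). That call too was thin, lost without normoxic replicate 1 or 3 or hypoxic replicate 1 or 3 (adjusted p up to 0.0972), in a fit of all 18 samples (adjusted p = 0.103) and with no low-count filter (adjusted p = 0.0638). The chain had passed that filter only through its hypoxic samples.

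Of the transmembrane chains, COL13A1 (chromosome 10, 71561636 to 71724031, plus strand), found at cell adhesion sites, rose in both kidney lines. In HKC-8 it had 80, 58 and 50 counts in normoxia and 140, 214 and 123 in hypoxia, or 0.741 ± 0.206 and 1.81 ± 0.353 CPM, a rise of 1.30 ± 0.27 log2 units (adjusted p = 0.012). In RCC4+VHL it had 3, 14 and 6 counts and then 46, 46 and 37, a rise of 2.44 ± 0.44 log2 units (adjusted p = 7.04e-05). It passed the low-count filter there only through its hypoxic samples, and the call held with no such filter. HepG2 had at most 2 counts. COL17A1, a hemidesmosome chain, was tested in HKC-8 alone, at 0.0660 to 0.288 and 0.0363 to 0.266 CPM (-0.12 ± 0.69).

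Of the multiplexins, COL15A1 was at 1.25, 0.961 and 0.737 CPM in normoxic HKC-8 and 2.14, 2.02 and 2.16 in hypoxia. It rose by 1.11 ± 0.23 log2 units (adjusted p = 0.0121), and without hypoxic replicate 1 the adjusted p was 0.052. In RCC4+VHL it was at 1.86, 1.23 and 2.04 and then 1.77, 1.62 and 2.03 CPM, with overlap (0.09 ± 0.22). COL18A1 rose in HepG2, from 188, 179 and 161 to 225, 215 and 207 CPM, by 0.29 ± 0.07 log2 units (adjusted p = 0.00408, but 0.196 in a fit of all 18 samples). In HKC-8 it was at 48.6 to 90.1 and 53.5 to 71.5 CPM (-0.05 ± 0.20) and in RCC4+VHL at 50.4 to 59.7 and 52.3 to 72.5 (0.09 ± 0.08). COL26A1 in HepG2, at 17.4 to 20.1 and 17.5 to 18.3 CPM, had a log2 fold change of -0.06 ± 0.08. An exon of COL18A1 overlaps SLC19A1 in the annotation.

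Whether the responses themselves differed was tested by the line-by-oxygen interaction, for chains that were tested in both lines of a pair. Between HepG2 and HKC-8, which share 0.5% oxygen and 16 h in the labels, 1 of 17 chains responded more in HepG2 (6.04% of all genes) and 2 responded less (4.95%). COL7A1 rose 0.54 ± 0.15 log2 units more in HepG2 (adjusted p = 0.0303). COL27A1 differed by -1.04 ± 0.22 (adjusted p = 0.00642) and COL4A1 by -1.05 ± 0.29 (adjusted p = 0.0316), both being called up in HKC-8 alone. Of 12 fits that each left out 1 sample, 8 lost the COL7A1 difference, 5 the COL4A1 difference and 0 that of COL27A1. With the replicate block 5 chains responded less in HepG2.

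Between RCC4+VHL and HKC-8, 1 of 18 chains responded more in RCC4+VHL (9.12% of all genes) and 4 less (8.14%). COL12A1 rose 0.61 ± 0.15 log2 units more in RCC4+VHL (adjusted p = 0.0127). The difference was -1.17 ± 0.19 for COL5A1 (adjusted p = 0.0013), -0.55 ± 0.10 for COL4A1 (adjusted p = 0.00253), -1.04 ± 0.33 for COL15A1 (adjusted p = 0.0466) and -0.70 ± 0.21 for COL6A2 (adjusted p = 0.0419). Of the 12 fits without 1 sample, 10 lost the COL15A1 difference and 9 that of COL6A2, and 0 lost the others. With the replicate block 2 chains responded more and 7 less in RCC4+VHL. COL13A1, called in both lines, did not pass the test of the difference (1.14 ± 0.52, adjusted p = 0.167), nor did COL4A4 (0.23 ± 0.18, adjusted p = 0.443).

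Between HepG2 and RCC4+VHL, 2 of 13 chains responded more in HepG2 (14.1% of all genes) and 0 less (13.4%). These were COL1A1, by 0.80 ± 0.19 log2 units (adjusted p = 0.00535), and COL7A1, by 0.80 ± 0.14 (adjusted p = 0.000276). With RCC4+VHL in a pair, cell line, oxygen level and duration cannot be told apart. The pairs of lines share samples, so the 3 tests are not separate evidence.

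**Figure D5:**
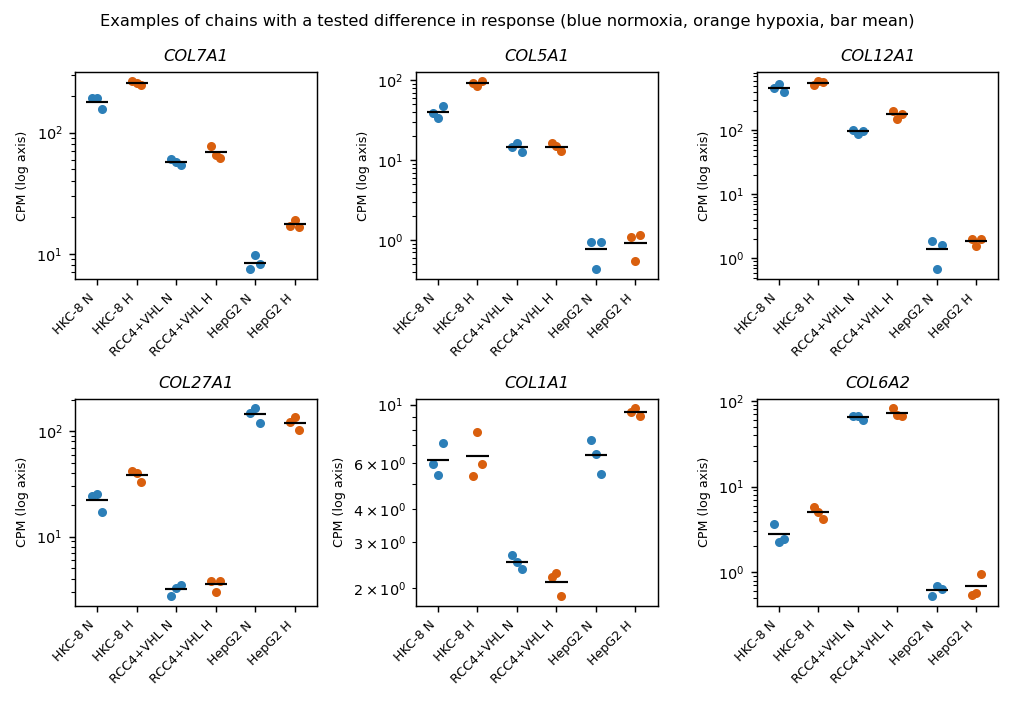
Level in CPM (logarithmic y axes) of COL7A1, COL5A1, COL12A1, COL27A1, COL1A1 and COL6A2 (panels) in each sample by cell line and oxygen, as examples of chains with a difference in response. Hypoxic points of COL7A1 lie above normoxic ones in every line, those of COL5A1 and COL27A1 in HKC-8 alone, those of COL12A1 in RCC4+VHL alone and those of COL1A1 in HepG2 alone.

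The genes that modify, fold, process, bind and cleave collagen were read from the same fits, as a list of 63 genes. In HKC-8, 14 of 52 tested rose and 1 fell, beside 11.2% and 9.12% of all genes. In RCC4+VHL 22 of 49 rose and 8 fell, beside 25.9% and 24.2%, and in HepG2 28 of 53 rose and 1 fell, beside 19.9% and 19.2%. Without normoxic replicate 1, 8 rose in HKC-8. With the replicate block 21 rose and 5 fell in HKC-8, and in a fit of all 18 samples 0 fell in RCC4+VHL and 0 in HepG2. The median log2 fold change over the list was 0.16, 0.18 and 0.31. Of the modifying enzymes 5 rose and 1 fell among 13 tested in HKC-8, 6 rose and 2 fell among 13 in RCC4+VHL, and 10 rose and 0 fell among 14 in HepG2. Of 9 folding and export factors 0 rose and 0 fell in HKC-8, 4 rose and 3 fell in RCC4+VHL, and 3 rose and 1 fell in HepG2.

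P4HA1, a prolyl 4-hydroxylase subunit, rose by 1.76 ± 0.10 log2 units in HKC-8 (adjusted p = 9.65e-06), 1.62 ± 0.04 in RCC4+VHL (adjusted p = 3.61e-20) and 1.99 ± 0.07 in HepG2 (adjusted p = 1.59e-10). PLOD2, which hydroxylates telopeptide lysines, rose by 0.89 ± 0.09, 1.01 ± 0.03 and 2.23 ± 0.08 in the same order. LOX, the founding lysyl oxidase, rose by 2.19 ± 0.08, 2.86 ± 0.04 and 3.98 ± 0.08. These enzymes passed the test in every line, and whether their responses differed between lines is not reported here. The prolyl 3-hydroxylase LEPREL2 was the gene of the list that fell in HKC-8 (-0.46 ± 0.13, adjusted p = 0.0357), and the chaperone HSPA5 the gene that fell in HepG2 (-0.18 ± 0.06, adjusted p = 0.035). SERPINH1, the collagen chaperone HSP47, fell by 0.15 ± 0.03 log2 units in RCC4+VHL (adjusted p = 0.000924) and rose by 0.37 ± 0.06 in HepG2 (adjusted p = 0.000222).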

How the data were processed

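PolyA+ RNA libraries (ScriptSeq v2) of the 18 samples had been processed by the authors. Reads were trimmed with Trim Galore 0.3.3, aligned to GRCh37 with TopHat2 2.0.8b and Bowtie 1.0.0, stripped of fragments without a unique position, and counted per UCSC gene with HTSeq 0.5.4p3 in the intersection-strict mode (versions per the submitters' processing notes). The deposited values are raw counts per gene and sample, with no normalisation, and the strand setting is not given in the sources used here. Intersection-strict counting leaves out reads shared by overlapping genes.

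Groups came from the sample labels. The members and gene lists were chosen with earlier results of these data known. Any collagen gene with 10 or more counts in at least 3 samples could be named, with values in every sample for those changed at least 2-fold, the highest 5 per line in normoxia, type IV chains and partner chains. Pathway genes could be named if changed at least 2-fold, and PLOD2 in HKC-8, LEPREL2, HSPA5 and SERPINH1 were named after their values were seen.

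Hypoxia was tested within each cell line with edgeR 4.0.16 (R 4.3.3; filterByExpr, TMM, glmQLFit, glmQLFTest) on all genes, adjusted by the Benjamini-Hochberg method with a threshold of 0.05. Normoxic levels were tested in 9 samples, and differences in response as an interaction in 12. SE is the absolute log2 fold change over the square root of F. Displayed CPM use TMM factors over all 18 samples. Levels per kilobase, coordinates and overlaps come from the canonical transcripts of GENCODE on GRCh37, read with Python 3.11.15. On simulated counts with known changes the tests recovered most but not all changed genes, and false calls exceeded the threshold in most runs, above all with DESeq2 in HKC-8.

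Same-numbered replicates correlated at 0.109, 0.453 and 0.447 in HKC-8, across genes and after subtraction of group means. The main tests paired no replicates in any line, and only the replicate block did so. In HKC-8 the block took the biological coefficient of variation from 0.135 to 0.0774. Normoxic replicate 1 correlated at 0.116 with hypoxic replicate 2, so the data do not show the pairing of replicate 1. The alternatives were DESeq2 1.42.0, median-of-ratios factors, 2 other count filters, 1 fit of all 18 samples, the replicate block and each sample left out. No 2 samples were identical. The floor of 3 counts was a chosen value and equals 0.0306 to 0.0733 CPM before TMM scaling.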

Additional observations from a re-analysis of the deposited data

Results flagged for a closer look

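The response to hypoxia differed between lines for 10 combinations of chain and pair of lines by the interaction test (edgeR, adjusted over all genes). All values are differences of log2 fold changes. RCC4+VHL exceeded HKC-8 by 0.61 for COL12A1, and lay under it by -1.04 for COL15A1, -0.55 for COL4A1, -1.17 for COL5A1 and -0.70 for COL6A2. HepG2 exceeded HKC-8 by 0.54 for COL7A1 and lay under it by -1.04 for COL27A1 and -1.05 for COL4A1. HepG2 exceeded RCC4+VHL by 0.80 for COL1A1 and by 0.80 for COL7A1. The background shares of all genes range from 4.95% to 14.1% for such calls in 1 direction. For RCC4+VHL the cell line, oxygen level and duration cannot be told apart, and the depth of HKC-8 libraries, 75441764 to 97984260 counts, moved with the line as well. The part of depth in these differences was not tested.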

How the results depend on the processing

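Counts of collagen genes called up kept within 1.5 times under the alternatives tried, except that 4 chains rose in RCC4+VHL in a fit of all 18 samples and 4 in HKC-8 without hypoxic replicate 1. The number called down, 0 in each line, became 2 in HKC-8 with all 18 samples, 1 with DESeq2 and 2 with the replicate block, 1 in RCC4+VHL with no filter and 1 with 10 counts in every sample, and in HepG2 1 with all 18 samples, 2 with no filter and 2 with the block. With 10 counts in every sample, which leaves fewer genes, the normoxic levels gave 4 higher and 5 lower for RCC4+VHL against HKC-8, 4 and 7 for HepG2 against HKC-8, and 5 and 7 for HepG2 against RCC4+VHL. The response of RCC4+VHL against HKC-8 was higher for 2 chains with DESeq2, and for 2, with 7 lower, with the replicate block. The block also gave 5 lower for HepG2 against HKC-8 and 1 lower for HepG2 against RCC4+VHL. The causes were not tested.

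Leaving out 1 sample at a time, chains rose and fell in ranges of 4 to 9 and 0 to 1 in HKC-8, 5 to 8 and 0 to 1 in RCC4+VHL, and 5 to 6 and 0 to 1 in HepG2. Normoxic levels ranged over 9 to 10 higher and 12 to 14 lower for RCC4+VHL against HKC-8, 10 to 11 and 13 to 15 for HepG2 against HKC-8, and 12 to 13 and 13 to 14 for HepG2 against RCC4+VHL. Responses ranged over 1 to 2 higher and 2 to 5 lower, 0 to 1 and 1 to 4, and 2 to 4 and 0 to 1, in the same order. Of the 31 called changes and differences, 0 changed direction in any fit. The direction of 16 changes without a call turned in 26 of the fits without 1 sample. In HKC-8 such fits spanned -0.57 to 0.34 for COL17A1, -0.24 to 0.22 for COL18A1, -0.12 to 0.17 for COL1A1, -0.17 to 0.071 for COL4A5, -0.072 to 0.32 for COL5A2 and -0.34 to 0.28 for COL9A2. In RCC4+VHL they spanned -0.10 to 0.23 for COL15A1, -0.28 to 0.66 for COL16A1, -0.076 to 0.17 for COL18A1, -0.018 to 0.067 for COL4A1, -0.064 to 0.12 for COL5A1 and -0.076 to 0.016 for COL6A1, and in HepG2 -0.17 to 0.0029 for COL16A1, -0.0099 to 0.55 for COL5A1, -0.034 to 0.73 for COL5A3 and -0.16 to 0.28 for COL6A2.

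Same-numbered replicates correlated at -0.0103, 0.0333 and 0.0147 in RCC4+VHL and 0.165, 0.0617 and 0.184 in HepG2. As in HKC-8, the main tests did not pair them. With the replicate block 8 chains rose in RCC4+VHL (COL4A2 added), and 6 rose (COL9A2 added) and 2 fell (COL27A1 and COL5A2) in HepG2. In HepG2 every sample correlated best with its own number, a hint from the data and not the design. Biological coefficients of variation were 0.135, 0.0437 and 0.0733 in HKC-8, RCC4+VHL and HepG2. Chains under 20 counts rest on depth too low for firm statements.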

Other observations

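Some chains too low to be tested within HepG2 had unequal counts between its conditions. COL14A1 had 0 counts in every normoxic HepG2 sample and 6, 8 and 2 in hypoxia. COL17A1, the hemidesmosome chain, had 2 counts in each normoxic HepG2 sample and 8, 8 and 9 in hypoxia. COL6A3 had 0, 13 and 6 counts in hypoxic HepG2 and 2, 0 and 2 in normoxia, so it rests on single samples. COL4A4 in HepG2 went the other way, with 4, 3 and 4 counts in normoxia and 0, 1 and 0 in hypoxia. In a fit of all 18 samples COL14A1 was called higher and COL4A4 lower in hypoxic HepG2, and with no low-count filter COL14A1 was called as well. These chains were chosen after their values were seen.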
